A study of Mus musculus with 28 samples.

Results

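Retinoic acid, the active form of vitamin A, is made inside cells from retinol in consecutive oxidations and acts by binding nuclear receptors that switch genes on or off at their DNA sites. The Aldh1a enzymes carry out the last step of its synthesis, from retinal to retinoic acid, and the Cyp26 enzymes break it down, so the balance of both families is known to set how much of the molecule a tissue holds. Crabp1 and Crabp2 carry retinoic acid inside the cell, and it is received by pairs of an RAR receptor (Rara, Rarb, Rarg) and an RXR receptor (Rxra, Rxrb, Rxrg). The following describes 10 genes of this system in the developing mouse first molar, namely Cyp26a1, Cyp26b1, Cyp26c1, Aldh1a1, Aldh1a2, Aldh1a3, Crabp1, Crabp2, Rarb, and Rxrg. The set was selected on the stage changes of Cyp26c1 and Rxrg in these same teeth, and the differences of all 10 genes between stages are therefore given as a description, without a test. All 10 were found among the 52636 genes of the count table, and 9 of them passed the filter on low counts together with 19101 genes in all, the exception being Aldh1a1.

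RNAseq libraries were made from single first molar tooth germs of C57BL/6JOlaHsd mice, without any treatment, mutation, or transgene named in the labels. The groups were 7 teeth each of E13 (labeled E13.5, bud stage), E14 (labeled E14.5, cap stage), and E16 (labeled E16.5, bell stage), from 7, 6, and 5 embryos. Both teeth were sequenced in 1 of the E14 embryos and 2 of the E16 embryos. A further 6 teeth of E15, labeled wild type, are present only in a second table. Teeth of the same embryo are not independent animals, and p values measure the spread between teeth. Between 17814073 and 27115729 reads per library were counted on genes at E13, E14, and E16. Each level is a normalized count, the reads of a gene divided by the size factor of its library, and genes are compared with each other only after division by their exon length in kb.

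A pair of libraries stood apart. At E16 the left tooth of embryo 3 had the fewest counted reads, and its 10 bone markers summed to 1910 CPM (reads scaled to the size of the library), against 5470 to 7240 CPM in the other 6 teeth of E16. The left tooth of embryo 7 at E13 held 1310 CPM of 12 skeletal muscle markers, against 37 to 213 CPM in the other 6 teeth of E13. The 10 markers of the dental epithelium, the tissue that forms the enamel, summed to 744 to 1030 CPM at E13, 1440 to 1700 CPM at E14, and 2080 to 3330 CPM at E16, and all 10 were called higher at E16 than at E13. The 10 markers of the dental mesenchyme summed to 3540 to 3900 CPM, 3080 to 3530 CPM, and 1550 to 2410 CPM. Of these 10, 7 were called lower and 1 higher at E16 than at E13. The 8 macrophage markers also summed higher with stage, to 42.4 to 68.2 CPM, 72.3 to 95.4 CPM, and 106 to 156 CPM, and no marker of these lists was at 0 in all teeth of a stage. The 10 bone markers had medians of 2830, 3860, and 6030 CPM at the 3 stages. Of 9 bone markers tested, 5 were called higher and 1 lower at E16 than at E13, and 1 higher and 1 lower at E16 than at E14. The 8 red cell markers summed to 243 to 450 CPM, 119 to 188 CPM, and 39.5 to 98.4 CPM, and the 9 cartilage markers to 178 to 234 CPM at E13 and 72.2 to 83.4 CPM at E16. The single genes of both lists were split, however. Of 8 red cell markers tested, 2 were called higher and 2 lower at E16 than at E13. Of 6 cartilage markers tested, 2 were called higher and 3 lower. In whole teeth, fewer cells of a type and less RNA of a gene per cell cannot be told apart.

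The promoters of the set were read for the DNA element through which retinoic acid receptors are known to act. The element searched, DR5, is a pair of 6-base sites in which each site was AGGTCA, the common form, or one of its variants, namely AGTTCA as in both genes below, GGTTCA as in Rarb, and also GGGTCA, in the same direction with 5 bases between them, on either strand. Windows reached from 250 bases before to 50 bases after the gene start in RefSeq (GRCm38.p6), and 8 of the 10 genes had one, the others being Aldh1a3 and Crabp2. DR5 was present in 2 of these 8 windows, and in 32 of all 32851 windows (0.0974%). The element is known from textbooks in Cyp26a1 and Rarb, so that these matches are a description and nothing is read from their share. Of the 83 retinoid genes considered here, the 10 and the 73 others described later, 59 had a window, and no others held DR5. The matches with 15 bases on each side follow on the strand of the gene, 5′ to 3′, with both sites and the spacer in capitals. In Cyp26a1 the match lies at chr19:37697776-37697792, on the strand opposite to the gene, beginning 32 bases before the RefSeq start. In Rarb, which runs on the minus strand, it lies at chr14:16575513-16575529, on the strand of the gene, beginning 53 bases before the RefSeq start, which is internal to the span of the gene in the annotation of the count table.
Cyp26a1: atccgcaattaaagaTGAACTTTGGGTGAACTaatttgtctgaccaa
Rarb: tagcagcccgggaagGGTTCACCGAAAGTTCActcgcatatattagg
The same sites spaced by 1 base (DR1) or 2 bases (DR2) were found in 0.222% and 0.268% of all windows and in no window of the 10 genes. A match of letters is not a measurement of binding, and binding was not measured here.

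The breakdown enzymes exchanged places between the bud and the bell. Cyp26b1 was the main Cyp26 gene at E13 and Cyp26c1 at E16, and Cyp26a1 was also higher at each later stage. Cyp26c1 (chromosome 19, 37685581 to 37693398, plus strand, GRCm38) lay at 3.21 to 45.6 normalized counts at E13 with a median of 13.3, at 122 to 193 with a median of 168 at E14, and at 491 to 1350 with a median of 986 at E16. The teeth of the 3 stages did not overlap, and the means were 19.1 ± 14.8, 165 ± 27.8, and 912 ± 311 (SD, n = 7 each). The log2 difference was 3.11 ± 0.32 (SE) from E13 to E14 and 2.46 ± 0.26 from E14 to E16. Cyp26a1 (chromosome 19, 37697798 to 37701536, plus strand), whose start lies 4399 bp beyond the end of Cyp26c1, was at 28.2 to 99.4 normalized counts at E13 (median 70.2), 134 to 249 at E14 (median 216), and 372 to 640 at E16 (median 543). These ranges also had no overlap, and the log2 differences were 1.64 ± 0.21 and 1.30 ± 0.19, so that both neighboring genes were higher at each later stage, by 47.8-fold for Cyp26c1 and 7.66-fold for Cyp26a1 from E13 to E16.

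Cyp26b1 (chromosome 6, 84571414 to 84593908, minus strand) ran the other way. Its normalized counts were 4170 to 5700 at E13 (median 4860), 3480 to 4310 at E14 (median 4130), and 419 to 1860 at E16 (median 1550). The E13 and E14 teeth overlapped, with a log2 difference of -0.28 ± 0.18, and every E16 tooth was below every E14 tooth, with a log2 difference of -1.52 ± 0.18. The lowest value of E16 was the left tooth of embryo 3, and without it the E16 mean was 1550 ± 207 (SD, n = 6) in place of 1390 ± 467.

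**Figure D1:**
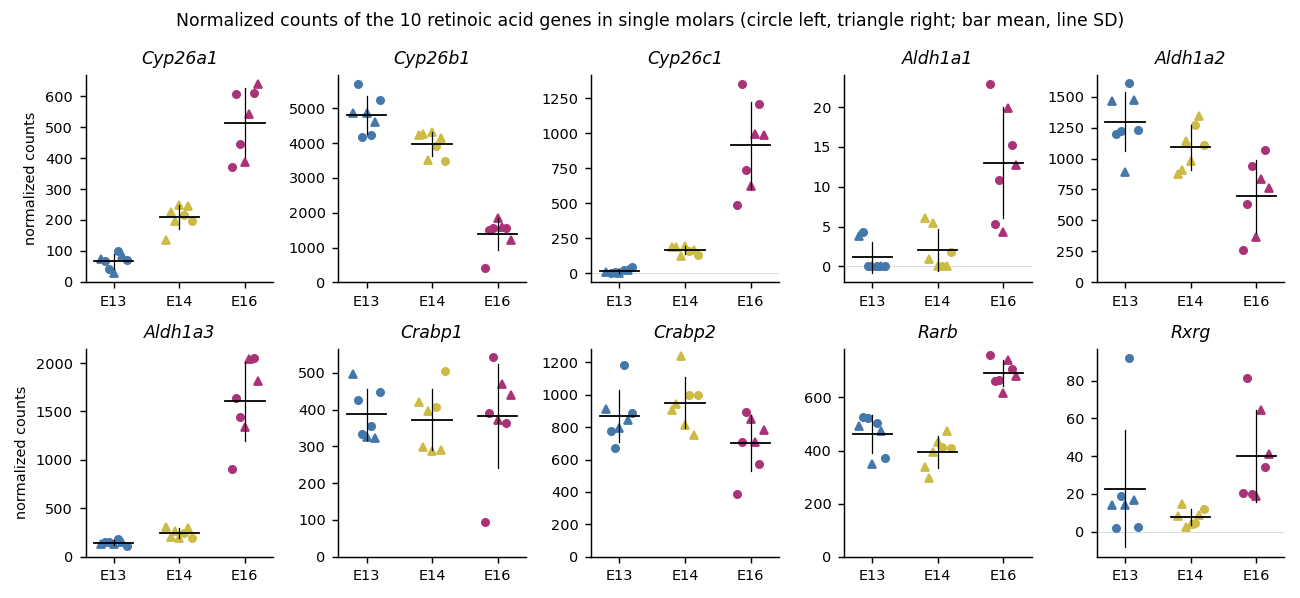
Normalized counts of the 10 genes (vertical axes, 1 panel per gene, linear scales) at E13, E14, and E16, with 1 point per tooth (circles left, triangles right), the mean as a horizontal bar, and the SD as a vertical line. Cyp26a1, Cyp26c1, and Aldh1a3 have no overlap between any of the 3 stages, Cyp26b1 is lower at E16 than at E13 and E14, and Crabp1 overlaps at all stages.

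Per kb of exon, the sum of the 3 Cyp26 genes was 943 ± 100 normalized counts in the bud, 942 ± 87.1 in the cap, and 1040 ± 274 in the bell (SD, n = 7 each), so that the means of the sum differed by less than the SD at E16. The composition of that sum differed far more. Cyp26b1 made up 95.3 ± 2.03% of it at E13, 78.9 ± 1.48% at E14, and 24.8 ± 8% at E16. Cyp26c1 made up 1.17 ± 0.846%, 9.96 ± 0.917%, and 49.6 ± 5.64%, and Cyp26a1 3.58 ± 1.43%, 11.2 ± 1.88%, and 25.6 ± 4.48%. Between E13 and E16 the ranges of these shares did not overlap for any of the 3 genes. Without the left tooth of embryo 3, the E16 sum was 1120 ± 182 and the share of Cyp26b1 26.6 ± 7.15% (n = 6).

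A similar exchange was measured among the synthesis enzymes. Aldh1a2 (chromosome 9, 71215789 to 71296243, plus strand), known as the main retinoic acid producer of the early embryo, was at 890 to 1610 normalized counts at E13 (median 1230), 875 to 1340 at E14 (median 1110), and 260 to 1070 at E16 (median 761). Its teeth overlapped in each pair of stages, and the log2 difference from E13 to E16 was -0.91 ± 0.21. Aldh1a3 (chromosome 7, 66390890 to 66427517, minus strand), known from sensory and nasal epithelia, was at 115 to 188 normalized counts at E13 (median 151), 189 to 311 at E14 (median 247), and 903 to 2050 at E16 (median 1640). The highest E13 tooth and the lowest E14 tooth were adjacent, at 188 and 189, and the larger step was from E14 to E16, with a log2 difference of 2.72 ± 0.16 against 0.72 ± 0.16 before. Aldh1a1 (chromosome 19, 20492715 to 20643465, plus strand) was close to the limit of detection, with 0 reads in 5 of 7 teeth at E13 and in 3 of 7 at E14, and 5 to 21 reads per tooth at E16. Its E16 range of 4.30 to 22.9 normalized counts began just above the highest E13 tooth at 4.29.

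Per kb of exon, the 3 Aldh1a genes summed to 605 ± 109, 533 ± 80.9, and 657 ± 209 normalized counts at E13, E14, and E16. Aldh1a2 made up 94.6 ± 0.862%, 90 ± 2.38%, and 45.1 ± 7.53% of the sum, and Aldh1a3 5.34 ± 0.866%, 9.97 ± 2.30%, and 54.4 ± 7.34%. Aldh1a1 made up less than 1.47% in each tooth but the left tooth of embryo 3 at E16, which had that share. The single largest part of each family was thus the b1 and a2 gene at E13 and E14, and the c1 and a3 gene on average at E16.

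**Figure D2:**
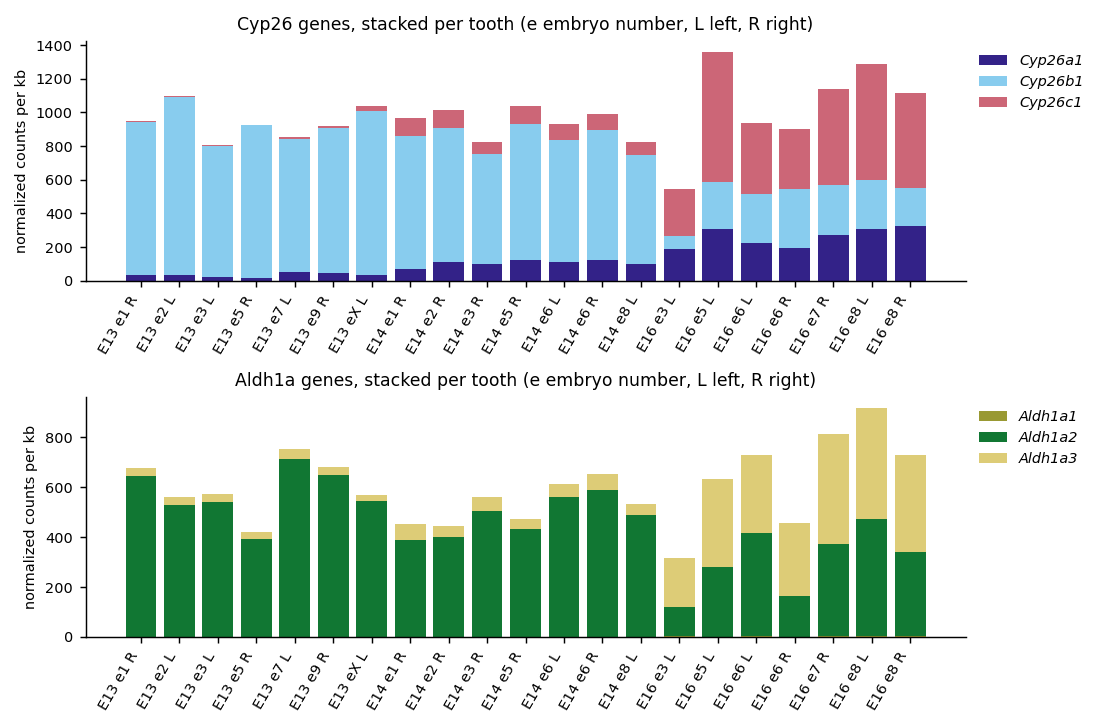
Normalized counts per kb of exon, stacked for the 3 Cyp26 genes (upper panel) and the 3 Aldh1a genes (lower panel), with 1 bar per tooth on the horizontal axis, named by stage, embryo number (e), and side (L, R). The heights of the bars at E13 and E14 are between 807 and 1100 for Cyp26, while the part of Cyp26c1 is thin at E13 and the largest on average at E16, and the E16 left tooth of embryo 3 has the lowest bar in both panels.

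These levels were set beside the tissue markers, since the epithelium markers also summed higher at each stage. The epithelium markers include Shh, whose own mean was 99.5 normalized counts at E13 and 3670 at E16. Per 1000 CPM of the epithelium markers, Cyp26c1 had 1.01 ± 0.789 CPM in the bud, 4.55 ± 0.776 in the cap, and 13.4 ± 3.38 in the bell (SD, n = 7 each). Cyp26a1 had 3.47 ± 1.68, 5.73 ± 1.04, and 7.74 ± 1.47 CPM on this scale. Aldh1a3 had 7.47 ± 2.08, 6.74 ± 1.68, and 23.7 ± 4.11 CPM, so that on this scale it differed between E13 and E14 by less than its SD, and between E14 and E16 by more. Per 1000 CPM of the mesenchyme markers, Cyp26b1 had 55.7 ± 4.91, 51.0 ± 4.84, and 28.9 ± 7.37 CPM, and Aldh1a2 15.1 ± 2.94, 13.9 ± 1.94, and 14.8 ± 5.83 CPM. The level of Aldh1a2 relative to the mesenchyme markers thus differed between stages by less than its SD. Such readings depended on the scale. Per 1000 CPM of the epithelium markers, Aldh1a2 had 66.7 ± 21.2, 30.1 ± 5.39, and 10.2 ± 3.89 CPM. Per 1000 CPM of the mesenchyme markers, Aldh1a3 had 1.71 ± 0.304, 3.11 ± 0.628, and 34.8 ± 8.65 CPM. These ratios do not locate a gene in a tissue, and the part of tissue composition in the stage differences was not tested.

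Between E13 and E16, the binding proteins had the smallest log2 differences of the 9 genes that passed the filter, -0.03 ± 0.22 for Crabp1 and -0.31 ± 0.15 for Crabp2. Crabp1 (chromosome 9, 54764748 to 54773110, plus strand) was at 324 to 498 normalized counts at E13 (median 356), 288 to 506 at E14 (median 396), and 93.6 to 543 at E16 (median 390). The stages overlapped, and the log2 differences, between -0.06 and 0.03 with an SE of 0.22, changed sign under other settings. The 93.6 was the left tooth of embryo 3, and without it the E16 teeth lay at 363 to 543. Crabp2 (chromosome 3, 87948666 to 87953376, plus strand), known to hand retinoic acid to the receptors, was at 671 to 1180 normalized counts at E13 (median 846), 751 to 1240 at E14 (median 940), and 386 to 896 at E16 (median 711). Its log2 difference was 0.13 ± 0.15 from E13 to E14 and -0.44 ± 0.15 from E14 to E16, with overlapping teeth.

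Of the receptors in the set, Rarb (chromosome 14, 16430839 to 16819156, minus strand) was at 350 to 528 normalized counts at E13 (median 493), 296 to 474 at E14 (median 411), and 618 to 760 at E16 (median 679). All E16 teeth were above all teeth of E13 and E14, with a log2 difference of 0.81 ± 0.11 from E14 to E16, while E13 and E14 overlapped. Per kb, Rarb made up 5.54 ± 0.791%, 4.32 ± 0.738%, and 8.67 ± 3.70% of the 3 RAR genes, and 7.32 ± 1.04% at E16 without the left tooth of embryo 3. Exons of Rarb share 1793 bp with Top2b on the opposite strand, a topoisomerase at 581 to 612 normalized counts per kb on average against 74.8 to 131 for Rarb, and 227 bp with the antisense gene Gm48162. Whether the authors counted reads by strand is not given in the sources used here, and reads from the shared bases may not be told apart or may have gone uncounted. The values of Rarb per kb divide by its full 5265 bp of exon, shared bases included. Exons of the other 9 genes share no bases with another gene.

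Rxrg (chromosome 1, 167598384 to 167639623, plus strand), a receptor known from muscle and nerve cells, was low at all stages. It was at 2.14 to 91.8 normalized counts at E13 (median 14.1), 2.72 to 14.9 at E14 (median 8.17), and 18.9 to 81.4 at E16 (median 34.2). The E16 teeth lay above all E14 teeth, with a log2 difference of 2.32 ± 0.61, and E13 overlapped with both. The value of 91.8 was the left tooth of embryo 7, the tooth with the high muscle markers, and the other 6 teeth of E13 lay at 2.14 to 18.9 with a mean of 11.4 ± 7.27, against 22.9 ± 31.1 with it. At E16, the highest values of Rxrg, 81.4 in the left tooth of embryo 5 and 64.6 in the right tooth of embryo 7, went with 75.2 and 27.5 CPM of muscle markers. The E16 tooth with the most muscle markers, the right tooth of embryo 6 at 167 CPM, had an Rxrg value of 18.9. This was close to 19.9 and 20.7 in the left teeth of embryos 6 and 3, and each of these values rested on 19 to 22 reads. The part of muscle in the levels of Rxrg was not tested. Per kb, Rxrg made up 1.15 ± 1.61%, 0.377 ± 0.193%, and 2.26 ± 1.06% of the 3 RXR genes.

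**Figure D3:**
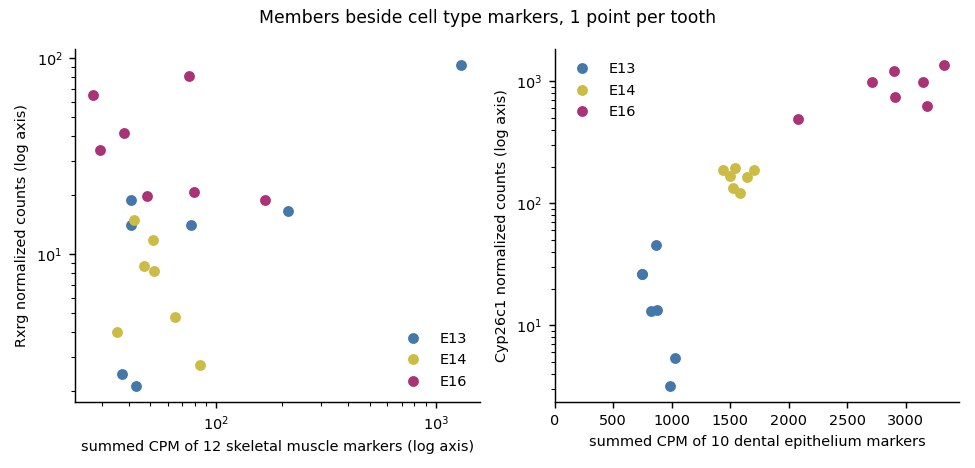
Left, Rxrg (normalized counts, log axis) against the summed CPM of 12 skeletal muscle markers (log axis), and right, Cyp26c1 (normalized counts, log axis) against the summed CPM of 10 dental epithelium markers (linear axis), with 1 point per tooth colored by stage. The E13 tooth with 1310 CPM of muscle markers also has the highest Rxrg, 91.8, whereas the 2 E16 teeth with the highest Rxrg have 75.2 and 27.5 CPM, and the stages are separate in Cyp26c1.

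Counted over the 9 genes that passed the filter, the teeth did not overlap for 3 genes between E13 and E14, 3 higher at E14 (Cyp26a1, Cyp26c1, and Aldh1a3), beside 9.92% of all genes tested in either direction. Between E14 and E16 this was so for 6 genes, 5 higher (Cyp26a1, Cyp26c1, Aldh1a3, Rarb, and Rxrg) and Cyp26b1 lower, beside 10.8% of all genes. Between E13 and E16 it was so for 5 genes, namely Cyp26a1, Cyp26c1, Aldh1a3, and Rarb higher and Cyp26b1 lower, beside 18.7% of all genes. Aldh1a1, which was not tested, was separated only by 4.30 against 4.29 normalized counts, and in the second table, described below, its E16 teeth (from 4.16) overlapped with those of E13 (up to 4.23). Since stage changes chose the set, nothing is read from these shares. The log2 differences kept their sign under all 28 or 29 other settings for 8 of the 9 genes, the exception being Crabp1.

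Ordered by normalized counts per kb, Cyp26b1 was highest at E13 with 898 ± 101, followed by Crabp2 with 655 ± 120, Aldh1a2 with 573 ± 106, and Crabp1 with 483 ± 86.8. The last 3 of these neighbors differed by less than their SDs together. Rarb followed with 88 ± 13.7, then Cyp26a1 with 33.5 ± 12.5 and Aldh1a3 with 31.8 ± 5.03, which were not separable, then Cyp26c1 with 10.9 ± 8.48 and Rxrg with 9.97, also not separable, and Aldh1a1 with 0.233 ± 0.399. At E16 the order was Crabp2 with 530 ± 132, Cyp26c1 with 522 ± 178, Crabp1 with 476 ± 177, Aldh1a3 with 347 ± 89.2, Aldh1a2 with 307 ± 130, Cyp26a1 with 260 ± 56.5, and Cyp26b1 with 259 ± 87.2, and each neighbor in this series was within the SDs of the next. Rarb with 131 ± 9.25, Rxrg with 17.5 ± 10.6, and Aldh1a1 with 2.64 ± 1.40 lay below.

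Side was not used to choose the genes, and left and right teeth were compared in the same fit with stage as a factor, 10 left and 11 right. None of the 9 genes tested was called (edgeR, adjusted p = 1 for each), and 0 were below an unadjusted p of 0.05 with edgeR or with DESeq2. Of all 19101 genes 0 (0%) were called by either tool, with 306 below an unadjusted 0.05 in edgeR and 373 in DESeq2. The log2 differences of right over left lay between -0.34 ± 0.50 (SE) for Rxrg and 0.14 ± 0.15 for Cyp26b1. Within 1 embryo, the left and right teeth could still differ, and Aldh1a2 was at 938 and 370 normalized counts in embryo 6 of E16 and at 1270 and 1340 in embryo 6 of E14.

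The E15 teeth provide an intermediate time. They took no part in the choice of the genes, but the E13 and E16 teeth beside them did. They were compared only within the second table, whose estimated counts from salmon cover 14185 genes including all 10, and which holds the E13 and E16 teeth as well. Cyp26c1 was at 168 to 329 normalized estimated counts at E15 (median 210), above all E13 teeth of this table at 3.18 to 40.1 and below all E16 teeth at 420 to 1160. Cyp26a1 at E15 was at 138 to 303 (median 221), between 26.9 to 93.8 and 366 to 613, and Aldh1a3 at 527 to 668 (median 556), between 118 to 186 and 903 to 1900. All 3 genes were thus intermediate at E15 without overlap on either side. Cyp26b1 was at 1460 to 2610 at E15 (median 2470), below all E13 teeth at 3970 to 5270 and overlapping with E16 at 444 to 1710 through its lowest tooth.

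Per kb, Cyp26b1 made up 64.1 ± 2.91% of the Cyp26 sum at E15 (SD, n = 6), against 95.4 ± 1.99% at E13 and 26.3 ± 8.35% at E16 in the same table, and Cyp26c1 19.3 ± 3.99%. Aldh1a3 made up 23.9 ± 4.06% of the Aldh1a sum at E15, against 5.71 ± 0.837% and 54.4 ± 7.67%. The Cyp26 sum at E15, 678 ± 120 per kb, was lower on average than at E13 (883 ± 86.8) and E16 (927 ± 236). Crabp1 had its lowest mean at E15, 175 ± 56.7, with teeth at 113 to 263 (median 171), below all E13 teeth at 312 to 477. The E16 teeth lay at 342 to 517, except for the left tooth of embryo 3 at 98.8. The other genes overlapped at E15 with both stages, among them Rxrg at 1.77 to 29.4 (median 10.3), Rarb at 362 to 656 (median 468), and Aldh1a2 at 629 to 1220 (median 968). Crabp1 made up 23.0 ± 4.12% of the Crabp sum at E15, against 42.4 ± 5.31% at E13. Of the 10 genes, 5 had no overlap between E13 and E15, beside 13.2% of all 13447 genes tested, and 3 between E15 and E16, beside 3.07%, and nothing is read from these shares. Whether the E15 libraries were prepared together with the others is not given in the sources used here, and such a difference and the stage cannot be told apart.

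**Figure D4:**
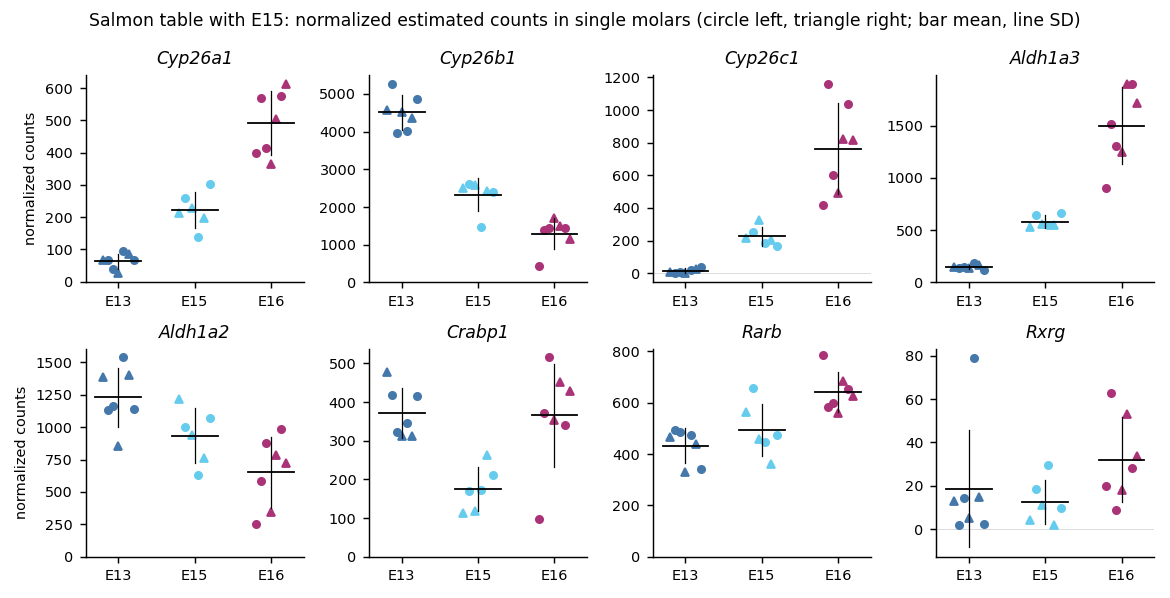
Normalized estimated counts (vertical axes, linear scales) of 8 of the genes in the second table at E13, E15, and E16, with 1 point per tooth (circles left, triangles right), the mean as a horizontal bar, and the SD as a vertical line. Cyp26a1, Cyp26c1, and Aldh1a3 at E15 lie between the other stages without overlap, and Crabp1 is at 113 to 263 at E15, below all E13 teeth.

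The rest of the pathway was tested with 73 other genes in 5 lists, of which 53 passed the filter. These genes were not used to choose the set, but the lists were chosen with earlier results of these data known. At an adjusted p below 0.05 (edgeR), 8 were higher and 6 lower at E14 than at E13, beside 11.3% and 8.47% of all genes. At E16 against E14, 13 were higher and 14 lower, beside 15% and 13.1%, and at E16 against E13, 13 were higher and 17 lower, beside 21.6% and 19.6%. The median log2 difference of the 53 genes was between -0.06 and 0.03 in the 3 comparisons, and that of all genes between -0.01 and 0. Without the left tooth of embryo 3 at E16, 11 in place of 6 genes were lower at E14 than at E13, and 22 in place of 13 were higher at E16 than at E13. Of all genes, these numbers were then 2648 in place of 1617 and 4914 in place of 4135. With the teeth of 1 embryo summed, 9 in place of 14 were lower at E16 than at E14. In the second table, 9 of the 13 genes higher and 11 of the 17 lower at E16 than at E13 were also called, and Fabp5 and Trim24 were not tested in it.

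Of the genes for uptake and storage of retinol, 9 of 13 were tested. From E13 to E16, 3 rose (Rbp2, Stra6, and Lpl) and 2 fell (Lrp2 and Dgat1), beside 21.6% and 19.6% of all genes. Of these, Lpl, Stra6, and Dgat1 were not called in the second table. There Lpl, a lipase of the vessel wall, had means of 1930 at E13 and 2000 at E16 (log2 difference 0.08 ± 0.20, adjusted p = 0.796, edgeR). In the first table its means were 342 and 500, so that its level differed between the tables, and the reason was not tested. The log2 differences in the second table were 0.59 for Stra6 (adjusted p = 0.154) and -0.18 for Dgat1 (adjusted p = 0.343). Rbp2, an intracellular retinol carrier, had 4 reads in the 7 teeth of E13 together, 0 reads in those of E14, and 196 in those of E16. Set against an assumed floor of 3 reads over the 7 teeth of E14, its E16 level was 65.2-fold. The lower end of the 95% counting interval was 52.6-fold. It was 44.7-fold that of E13 (95% counting interval 17.2 to 166), where all 4 reads came from the left tooth of embryo 3. Lrp2, an uptake receptor of the cell surface, was at 139 to 260 normalized counts at E13 and fell to 37.1 to 58.3 at E16, a log2 difference of -2 ± 0.29 (adjusted p = 3.62e-06, edgeR). Stra6, which carries retinol through the cell membrane, was lowest at E14, with a mean of 47.5 ± 13.4 against 85.9 ± 32.1 at E13 and 128 ± 32.4 at E16. It fell by 0.85 on the log2 scale from E13 to E14 (adjusted p = 0.0102) and rose by 1.42 ± 0.23 from E14 to E16 (adjusted p = 3.7e-05). Its difference from E13 to E16, 0.57 ± 0.22 (adjusted p = 0.0433), was not called without any 1 of 11 teeth, namely those of E13 other than the left tooth of embryo 7 and those of E16 other than the left tooth of embryo 3 and the right tooth of embryo 8 (adjusted p between 0.0534 and 0.0872), nor with the teeth of 1 embryo summed (adjusted p = 0.0838). Rbp4, the retinol carrier of the blood, had means of 6.91, 3.40, and 13.7 normalized counts. Its difference from E14 to E16, 1.97 ± 0.68 (adjusted p = 0.0305), was not called without any 1 of 7 teeth, the E14 teeth of embryos 1, 3, 5, and 8 and the right one of embryo 6, and both E16 teeth of embryo 6 (adjusted p between 0.0511 and 0.0795), nor with the teeth of 1 embryo summed (adjusted p = 0.0558).

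Among the enzymes that convert retinol and retinal, 12 of 22 were tested. From E13 to E16, 3 rose (Dhrs3, Dhrs9, and Rdh5) and 3 fell (Rdh10, Rdh13, and Akr1b3), beside 21.6% and 19.6% of all genes. In the second table Rdh5 and Akr1b3 were not called, with log2 differences of 0.27 ± 0.17 (adjusted p = 0.23, edgeR) and -0.27 ± 0.11 (adjusted p = 0.0746). The level of Rdh5 also differed between the tables, with means of 192 at E13 and 228 at E16 in the second, against 53.4 and 83.8 in the first. Rdh10, the main embryonic enzyme for the first oxidation of retinol, fell from 551 ± 48.7 at E13 to 394 ± 46.7 normalized counts at E16, with no overlap of the teeth (log2 difference -0.49 ± 0.09, adjusted p = 8.81e-05, edgeR). Dhrs3, which turns retinal back into retinol, was at 240 to 402 at E13, 298 to 404 at E14, and 675 to 1290 at E16, and it rose by 1.45 ± 0.12 on the log2 scale from E14 to E16 (adjusted p = 1.49e-09). In the second table Dhrs3 also rose from E13 to E15, by 0.96 ± 0.14 (adjusted p = 1.54e-05). Dhrs9, a related dehydrogenase, had 1 read in the 7 teeth of E13 and 252 in those of E16, a ratio of 230 (95% counting interval 40.9 to 9120), and rose from 0 to 6.36 normalized counts at E14 to 16.3 to 52.2 at E16 (adjusted p = 3.3e-06).

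The other receptors are the more abundant ones. Per kb, Rarg made up 58.3 ± 2.13%, 51.8 ± 2.69%, and 55.9 ± 2.16% of the RAR genes at E13, E14, and E16, Rara 36.2 ± 1.87%, 43.9 ± 2.21%, and 35.4 ± 1.94%, and Rxra between 70.2% and 74.5% of the RXR genes on average. Rara was at 2240 to 2760 normalized counts at E13, 3080 to 3670 at E14, and 1180 to 3090 at E16. It was called higher at E14 than at E13 (0.41 ± 0.13, adjusted p = 0.0297) and lower at E16 than at E14 (-0.38 ± 0.13, adjusted p = 0.0337). With the teeth of 1 embryo summed, neither was called (adjusted p = 0.0585 and 0.0701, edgeR), and both calls depended on single teeth. The first was not made without any 1 of the left teeth of embryos 3 and X or the right tooth of embryo 5 at E13, or the left teeth of embryos 6 and 8 at E14 (adjusted p between 0.0522 and 0.0605), where X stands for the tooth whose embryo number is not given in the table. The second was not made without any 1 of the teeth of embryos 2, 6, and 8 at E14 or of embryos 7 and 8 at E16 (adjusted p between 0.0597 and 0.0738). Without the left tooth of embryo 3 at E16, Rara was called higher at E16 than at E13 (0.17 ± 0.06, adjusted p = 0.0318) and Rarg higher at E16 than at E14 (0.17 ± 0.06, adjusted p = 0.0368). With all teeth, Rarg and Rxra were not called in any pair of stages (adjusted p between 0.112 and 0.998), and Rxrb was called lower at E16 than at E13 (-0.34 ± 0.10, adjusted p = 0.00894), though not in the second table (-0.29 ± 0.17, adjusted p = 0.207). The list of 6 also holds Ppard and Fabp5, which form an alternative route for retinoic acid, and both were higher at E16 than at E13.

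All 18 genes for coactivators and corepressors passed the filter. From E13 to E16, 2 rose (Nrip1 and Kat2b) and 6 fell, beside 21.6% and 19.6% of all genes. Hdac3 and Nsd1 of those that fell were not called in the second table (adjusted p = 0.0652 and 0.0836, edgeR). Zfp423, a zinc finger partner of the receptors, fell at each step, from 3180 ± 270 at E13 to 2460 ± 136 at E14 and 1340 ± 275 at E16 (log2 difference -1.25 ± 0.11 from E13 to E16, adjusted p = 1.35e-09, edgeR). Of 19 genes known as targets of retinoic acid in other tissues, 12 were tested. From E13 to E16, 6 rose and 5 fell, beside 21.6% and 19.6% of all genes, so that the known targets moved in both directions. Dhrs3 and Stra6, described above, were among the risers, and the call of Stra6 depended on single teeth and was not made in the second table. Nr2f1, a nuclear receptor induced by retinoic acid in many cells, was at 1790 to 2990 normalized counts at E13, 806 to 1730 at E14, and 65.6 to 112 at E16, and no stages overlapped. It fell by 1.02 on the log2 scale from E13 to E14 (adjusted p = 1.75e-05) and fell by 3.61 from E14 to E16 (adjusted p = 1.42e-13), and in the second table it fell by 1.83 from E13 to E15 (adjusted p = 3.43e-08). Meis2, a homeobox gene, fell from 4230 ± 449 at E13 to 2100 ± 563 at E16 (log2 difference -1.01 ± 0.15, adjusted p = 6.47e-06). Rarres2, named for its induction by retinoids, rose from 10.7 ± 6.26 at E13 to 27.3 ± 7.32 at E16 (1.32 ± 0.33, adjusted p = 0.00243). The lists share 5 genes, and the targets were not tested for a response to retinoic acid here. Among the genes of the second table, 7 of 52 other retinoid genes were higher and 11 lower at E15 than at E13, beside 18.3% and 8.49% of all genes, and 5 were higher and 3 lower at E16 than at E15, beside 3.64% and 2.69%.

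**Figure D5:**
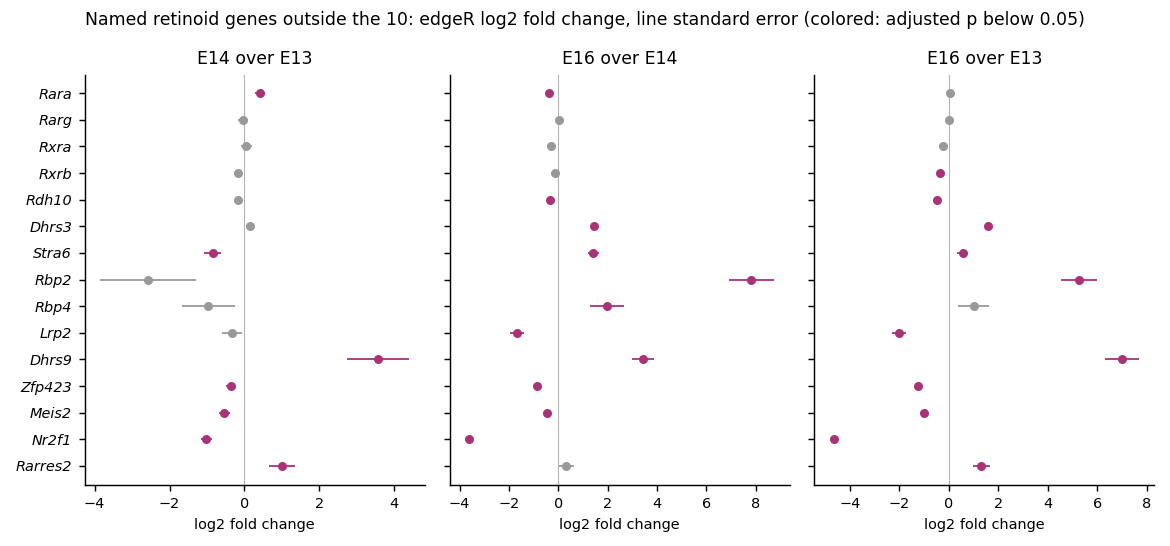
Log2 differences between stages (horizontal axes) of 15 named retinoid genes outside the 10, 1 panel per pair of stages, with the standard error as a line and calls at an adjusted p below 0.05 in color. Dhrs3, Dhrs9, and Rbp2 lie to the right and Nr2f1, Lrp2, and Zfp423 to the left in the comparison of E16 with E13.

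The genes most alike to Cyp26c1 over the 21 teeth, by the Pearson r of log2 CPM among all genes passing the filter, were Bcar3 (0.979), Sv2b (0.966), Shh (0.963), Has3 (0.962), and its neighbor Cyp26a1 (0.961). After the stage means were removed, r was 0.816 for Bcar3, 0.711 for Sv2b, 0.752 for Shh, 0.388 for Has3, and 0.567 for Cyp26a1. Shh, the hedgehog ligand of the dental epithelium, was at 99.5, 1330, and 3670 normalized counts on average at E13, E14, and E16. It is itself among the epithelium markers summed above. For Rxrg the genes most alike included Msc (0.809), BC100530 (0.8), Fhad1 (0.765), and Golga3 (0.761), with values between 0.614 and 0.737 after the stage means were removed. Msc codes for a transcription factor known from muscle precursors. The teeth fall into 3 stages and share library depth, and these values of r are descriptions that carry no test.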

How the data were processed

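Single mouse first molars were sequenced, 1 tooth per library. For E13, E14, and E16, the authors deposited raw HTSeq counts of each gene, from quality-filtered reads that STAR had aligned to GRCm38. For E13, E15, and E16, the authors also deposited estimated counts from salmon as whole numbers, and how its genes were chosen is not given in the sources used here. Of 7 labeled E15 teeth, 1 has no column and was not analysed here. The 1 E13 column without an embryo number was used by stage and side, as a left tooth of a separate embryo (X).

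The 10 genes and all lists were chosen with earlier results of these data known. Size factors came from DESeq2 (1.42.0), and log2 differences and tests from the quasi-likelihood fit of edgeR (4.0.16) in R 4.3.3, with TMM, filterByExpr (minimum count 10), a factor for stage, a prior count of 0.125, and Benjamini-Hochberg adjustment over all genes tested. The SE is the log2 difference divided by the square root of F. Beyond counting error, the coefficient of variation between teeth was 21.2%, and no teeth were alike within sampling noise. Exon lengths are those of GENCODE M21. Named genes are the 10, fixed genes (Rara, Rarg, Rxra, Rxrb, Rdh10, Dhrs3, and Stra6), every other retinoid gene called with an absolute log2 difference of at least 1, and the 5 genes most alike to Cyp26c1 and to Rxrg, and 2 genes that this rule names are not reported here. Lpl, Dgat1, Rdh5, Rdh13, Akr1b3, Ppard, Fabp5, Nrip1, Kat2b, Trim24, Hdac3, and Nsd1 were named after their values were seen, and levels without single teeth and the E13 to E16 calls of the second table were also added then. The tests were tested on simulated data. Alternatives were another normalization, filter, tool, and prior, teeth of an embryo summed, side, embryo number as a block, the salmon table, and each tooth left out. Counting intervals and floors cover counting error only.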

Additional observations from a re-analysis of the deposited data

Results flagged for a closer look

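Among 40 groups of teeth examined for a tooth far from the others, 3 had one, where chance gives about 1 in 20. Crabp1 in the left tooth of embryo 3 at E16 was at 93.6 normalized counts, with the next tooth at 363, and Cyp26b1 was also lowest in this tooth. Rxrg in the left tooth of embryo 7 at E13 was at 91.8, with the next tooth at 18.9, in the tooth that held 1310 CPM of skeletal muscle markers. Cyp26b1 in the left tooth of embryo 5 at E15 was at 1460 normalized estimated counts, with the next tooth at 2390.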

How the results depend on the processing

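The log2 differences of the 9 genes that passed the filter are given without a test, and their signs held under every alternative except for Crabp1. Embryo numbers do not mark shared animals across stages. Teeth of the same number correlated with a mean r of 0.0377 (15 pairs, -0.09 to 0.199), against -0.00488 for different numbers (132 pairs, -0.247 to 0.27). These values cannot show whether teeth of the same number share anything beyond it. With embryo number as a replicate block, the other retinoid genes called at E14 against E13 were 3 higher and 2 lower in place of 8 and 6, and 8 in place of 13 were higher at E16 than at E13. Of all genes, 1093 were then higher and 584 lower at E14 than at E13 in place of 2150 and 1617, and 2380 in place of 3752 were lower at E16 than at E13. With the teeth of an embryo summed, 9 in place of 14 other retinoid genes were lower at E16 than at E14. With each tooth left out in turn, the other retinoid genes lower at E14 than at E13 numbered 5 to 11, and those higher at E16 than at E13 numbered 12 to 22, with 11 and 22 reached without the left tooth of embryo 3 at E16. In the salmon table, an alternative chosen after seeing the data, 11 in place of 17 other retinoid genes were lower at E16 than at E13. All genes lower at E14 than at E13 with each tooth left out numbered 1256 to 2648, and all genes higher at E16 than at E13 numbered 3948 to 4914. The 2648 and 4914 were also reached without the left tooth of embryo 3 at E16. In the salmon table, 7 to 12 other retinoid genes were then lower at E15 than at E13 and 2 to 5 at E16 than at E15. Among single named genes, 44 calls were lost and 3 gained over the teeth left out, and 17 were lost under the other settings. Counting error weighs most on the genes with few reads, such as Aldh1a1, Rbp2, Dhrs9, and Rxrg, and on Cyp26c1 at E13. The parts of depth and of the spread between teeth in the precision of single genes were not tested.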
